A study of Mus musculus with 2 samples.

Results

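Collagens are the triple-helical proteins of the extracellular matrix, each built from 3 alpha chains that have genes of their own. All rows of the deposited gene table whose symbol reads Col, a number, the letter a and a number were taken, with Col17a1 left out, which gave 43 collagen genes of 19550 genes in all. They were kept in 3 families: 11 fibrillar collagens (types I, II, III, V, XI, XXIV and XXVII), 9 collagens of the basement membrane and its zone (types IV, VII, XV and XVIII) and 23 other collagens. The other collagens were 9 fibril-associated genes (FACIT), 7 genes of the beaded-filament types VI and XXVIII, 3 short-chain network genes of types VIII and X, 3 transmembrane genes of types XIII, XXIII and XXV, and Col26a1.

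The study profiled single cells of wild type C57BL/6 mice from the esophagus, the gastroesophageal squamocolumnar junction (GE-SCJ) and the stomach at embryonic day 15 (E15, 6 mice), E19 (2 mice), day 2 after birth (pup, 2 mice) and 8 weeks of age (adult, 3 mice). Tissue was digested with collagenase II, mice were pooled, each region and stage received a multiplexing tag, and the tagged cells were run as 1 library of 3′ RNA molecules counted by unique molecular identifiers (UMIs). The files held 7808 cells with 7808 distinct barcodes and 107865155 UMIs, with a median of 10424.5 UMIs per cell. The cells came from 11 groups of region and stage with 143 to 1403 cells and 2302227 to 20070615 UMIs each, and adult stomach was not analysed here.

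Each region and stage was 1 pooled sample, so no test between groups was made. Levels are UMIs of a gene per 1000000 UMIs of the group (CPM), intervals are exact 95% intervals that cover counting error only, and they say nothing of the spread between mice. A collagen gene was called higher or lower where the summed levels of 2 groups differed by at least 2-fold with at least 50 UMIs over both, after 1 UMI was added to each sum, and the log2 ratios are on that scale. Beside each count of called collagen genes stands the share of all genes that passed the same rule in the same comparison. Since 3′ counts do not measure chains of different genes on an equal footing, each gene was compared with itself across groups, and genes were added only as shares of UMIs.

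The compartments were the 9 class labels deposited for the cells: a stromal label, called fibroblast here (3442 cells), a second stromal label (139 cells), smooth muscle (1027 cells), endothelial (157 cells), neural (419 cells), immune (354 cells), columnar epithelium (1540 cells), squamous epithelium (690 cells) and a second squamous label (40 cells). Markers gave the class of the label in 87.0% of fibroblast, 94.0% of smooth muscle, 94.3% of endothelial, 87.4% of neural, 87.3% of immune, 99.4% of columnar and 94.8% of squamous cells. In the second stromal label the agreement was 48.2%, and its mesothelial markers summed to 2090 CPM beside 2050 CPM for fibroblast markers, so that it is called only by its label. The fibroblast label held fibroblast markers at 5852 CPM, pericyte markers at 416 CPM and mesothelial markers at 9.12 CPM. Median depth was 8940 UMIs per cell in fibroblasts and 8266.5 in immune cells, the class used as the level at which collagen RNA was seen in cells that should lack most of it.

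Fibrillar chains are secreted as procollagens, cleaved, and assembled into the fibrils that give the gut wall its strength. Type IV collagens instead form the sheet-like network of basement membranes, to which types XV and XVIII add at its border with the stroma, while type VII forms the fibrils that anchor squamous epithelium. Type VI makes fine beaded filaments around cells, and FACIT collagens sit on the surface of fibrils.

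The genes of the type IV chains lie in head-to-head pairs. In the GENCODE M21 annotation of GRCm38, Col4a1 covers chr8:11198423-11312826 on the minus strand and Col4a2 chr8:11312805-11449287 on the plus strand, so that their annotated 5′ ends overlap by 22 bases. The gap between starts was 71 bp for Col4a4 and Col4a3 on chromosome 1 and 1308 bp for Col4a6 and Col4a5 on chromosome X. The shared stretch is printed because it belongs to both Col4a1 and Col4a2, whose levels are followed together, and the 120 bases before the start of 3 other genes are printed because their levels marked a fibrillar gene, a squamous gene and a gene called higher after birth in the fibroblasts of all 3 regions. Sequences are from RefSeq on GRCm38.p6, which had a promoter entry for 34 of the 43 collagen genes. All are read 5′ to 3′ on the strand named, and the capitals in Col3a1 mark TATAAA, those in Col7a1 GGGCGG and those in Col8a1 the same motif read on the other strand. Motifs were not marked in the shared stretch of Col4a1 and Col4a2, which also holds GGGCGG.
Col4a2 start to Col4a1 start, chr8:11312805-11312826, plus strand: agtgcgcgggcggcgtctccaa
Col3a1, chr1:45311418-45311537, plus strand: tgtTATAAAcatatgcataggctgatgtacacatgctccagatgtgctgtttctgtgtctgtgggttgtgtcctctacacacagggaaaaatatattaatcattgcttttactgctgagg
Col7a1, chr9:108953466-108953585, plus strand: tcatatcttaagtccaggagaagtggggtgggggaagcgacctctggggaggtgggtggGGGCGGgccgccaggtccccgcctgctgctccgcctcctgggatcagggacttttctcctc
Col8a1, chr16:57754738-57754857, minus strand: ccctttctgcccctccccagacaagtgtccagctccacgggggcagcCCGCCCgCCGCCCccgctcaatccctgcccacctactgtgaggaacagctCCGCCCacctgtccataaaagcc

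Counted back from the annotated start, TATAAA stood at bases 117 to 112 of Col3a1, GGGCGG at bases 61 to 56 of Col7a1, and the other-strand matches of Col8a1 at bases 73 to 68, 66 to 61 and 23 to 18. Over the 250 bases before the start and on both strands, GGGCGG was found in 21 of 34 collagen genes (61.8%) and in 32.7% of 32851 promoters. The corresponding shares were 11.8% and 12.4% for TATAAA and 32.4% and 33.8% for CCAAT, and none of the 3 motifs contains another. These are matches of letters and not sites of binding.

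Of the 43 collagen genes, 39 had at least 100 UMIs over all cells and none was at 0. The 4 rare genes were Col10a1 with 4 UMIs, Col2a1 with 21, Col4a3 with 33 and Col9a1 with 83. Col10a1, of hypertrophic cartilage, had 3 of its UMIs in neural cells, and Col2a1, the main collagen of cartilage, had 14 in squamous cells. Col4a3 had 22 UMIs in the second stromal label (16.4 CPM), and Col9a1, a cartilage FACIT, had 48 in smooth muscle (4.42 CPM) and 33 in fibroblasts (1.02 CPM).

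Collagen genes together gave 1122218 UMIs, or 1.04% of all UMIs. They made up 2.90% of the UMIs of fibroblasts (95% interval 2.89 to 2.91%), 1.21% in the second stromal label, 0.847% in smooth muscle, 0.495% in endothelial cells and 0.396% in neural cells. Immune cells stood at 0.152%, squamous cells at 0.0995%, the second squamous label at 0.0827% and columnar cells at 0.0764%. With regions and stages pooled, the 3 epithelial labels thus lay below the immune cells. The labels differ in their mix of stages, with 4758582 of 10150496 squamous UMIs and 57765 of 3763867 immune UMIs from adult cells. The part of that mix in the shares was not tested. The make-up of the collagen RNA differed by compartment: fibrillar genes were 79.9% of it in fibroblasts, 60.5% in smooth muscle and 11% in endothelial cells, where basement membrane genes were 84.5%. In fibroblasts type I alone was 43.9% of collagen UMIs, type III 30%, type VI 11.3%, type V 5.24% and type IV 4.11%.

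**Figure D1:**
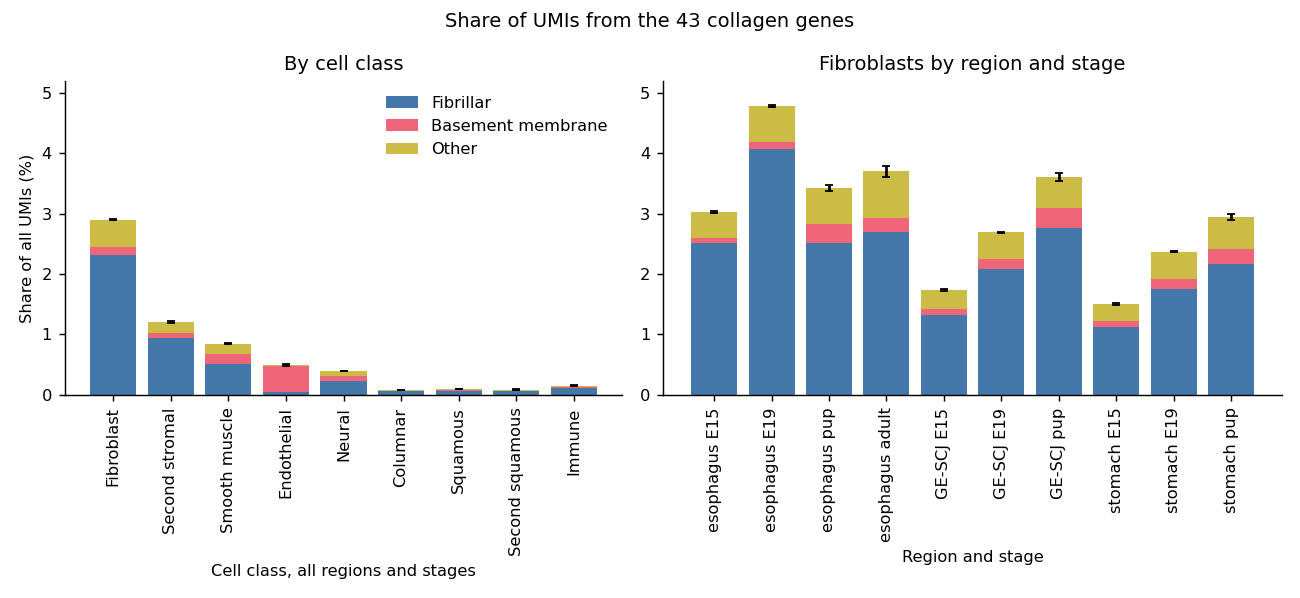
Share of UMIs from collagen genes in percent, stacked as fibrillar, basement membrane and other collagens, for the 9 class labels and for fibroblasts in 10 groups of region and stage; error bars are exact 95% intervals of the summed share. Fibroblasts stood highest at 2.90% of UMIs, and among fibroblast groups esophagus E19 stood highest at 4.79% and stomach E15 lowest at 1.51%.

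Of the 39 genes with at least 100 UMIs, 17 had their highest level in fibroblasts, 8 in neural cells, 4 each in smooth muscle, endothelial cells and the second stromal label, and 1 each in columnar (Col27a1) and squamous cells (Col7a1). The 17 fibroblast genes were Col1a1, Col1a2, Col3a1, Col5a1, Col5a2, Col24a1, all 6 type VI genes, Col8a1, Col12a1, Col16a1, Col22a1 and Col26a1. None of them was a type IV, VII, XV or XVIII gene.

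**Figure D2:**
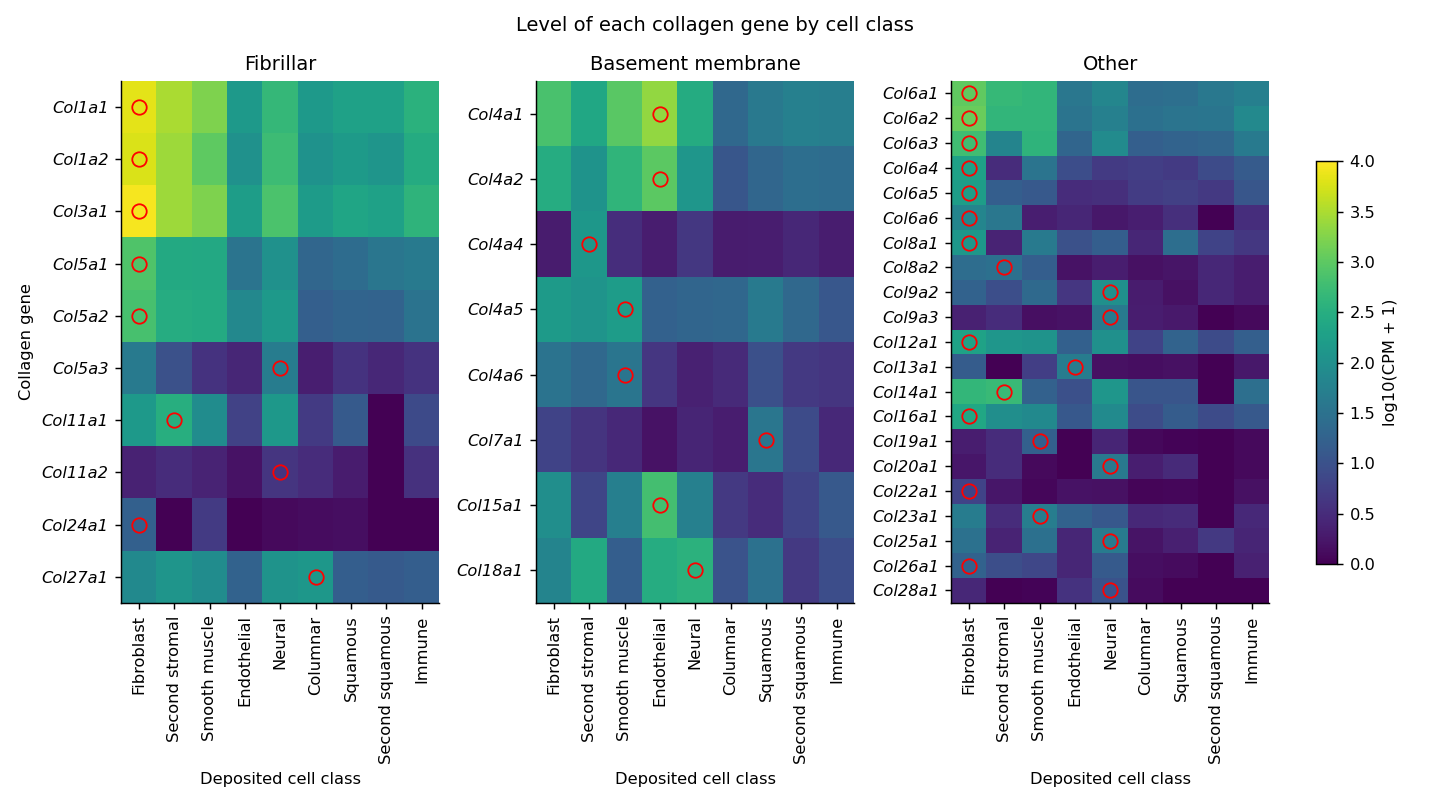
Levels of the 39 collagen genes with at least 100 UMIs in the 9 class labels, as log10 of CPM plus 1, in panels for fibrillar, basement membrane and other collagens; a red circle marks the label with the highest level of each gene. Circles stood in the fibroblast column for 17 genes, while those of the basement membrane panel were spread over the other labels.

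Fibrillar collagens. Col1a1 and Col1a2 encode the chains of type I, the main fibril of connective tissue. Col1a1 was at 6885 CPM in fibroblasts, 3159 in the second stromal label, 1704 in smooth muscle, 455 in neural, 355 in immune, 197 in squamous, 144 in columnar and 143 in endothelial cells. Col1a2 followed with 5839, 2593, 1025, 558, 286, 151, 109 and 106 CPM in the same order. Col3a1, the homotrimeric type III that forms fibrils with type I, was at 8693 CPM in fibroblasts, 2575 in the second stromal label and 1667 in smooth muscle, beside 403 CPM in immune cells. The level of all 3 genes in endothelial cells was under that of immune cells.

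Col1a1 was seen in 99.6% of fibroblasts and in 59.3% of immune cells, and after every cell was thinned to 5000 UMIs in 99.6% and 45.5%, with 502 of 3442 fibroblasts and 101 of 354 immune cells too shallow and left out. For every 100 UMIs of Col3a1, immune cells held 88.1 of Col1a1, 71.1 of Col1a2 and 13.1 of Col6a1, columnar cells 92.1, 69.4 and 16.3, squamous cells 88.2, 67.5 and 12.4, and fibroblasts 79.2, 67.2 and 12.3. The low levels of these chains in epithelial and immune cells thus stood in ratios near those of fibroblasts. With all regions and stages pooled, no epithelial level of a type I or III gene was above the immune level. In the pup esophagus, however, the squamous level of Col1a1 was above the immune one. Median depth was 25118 UMIs in columnar and 8266.5 in immune cells, and its part in these levels was not tested.

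Type V and XI chains enter type I fibrils and set their diameter. Col5a1 was at 785 CPM in fibroblasts, 267 in the second stromal label, 258 in smooth muscle and 43.6 in immune cells. Col5a3 did not separate the classes in this way, with 44.0 CPM in fibroblasts and 46.5 in neural cells. Col11a1 had its highest level in the second stromal label at 325 CPM, then fibroblasts at 146, neural cells at 137 and smooth muscle at 88.3 CPM, and its log2 ratio of second stromal over fibroblast was 1.16 (1.02 to 1.30). Col11a2 stayed low, with 3.20 CPM in neural and 2.66 CPM in immune cells. Col24a1 was at 15.6 CPM in fibroblasts and 3.78 in smooth muscle, and had 0 UMIs in endothelial, immune and second stromal cells.

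Col27a1, a fibrillar collagen known from cartilage, was the fibrillar gene with its highest level in an epithelium among those with at least 100 UMIs. It was at 131 CPM in columnar cells, 121 in the second stromal label, 112 in neural cells, 88.8 in smooth muscle, 77.1 in fibroblasts, 16.9 in endothelial, 14.9 in squamous and 14.6 in immune cells. It was seen in 72.4% of columnar and 11.3% of immune cells, and after thinning in 42.5% and 6.32%, at median depths of 25118 and 8266.5 UMIs. For every 100 UMIs of Col3a1, columnar cells held 83.5 of Col27a1, immune cells 3.63 and fibroblasts 0.887. In the stomach the columnar level was 173, 134 and 111 CPM at E15, E19 and pup, and in GE-SCJ 163, 112 and 149 CPM, while immune groups ranged from 4.89 to 21.4 CPM.

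Basement membrane collagens. Col4a1 and Col4a2, the chains of the common type IV network, were highest in endothelial cells. Col4a1 was at 2229 CPM there, 948 in smooth muscle, 707 in fibroblasts, 286 in neural, 241 in second stromal, 50.2 in immune, 39.8 in squamous and 21.7 in columnar cells. Col4a2 was at 988 CPM in endothelial cells, 420 in smooth muscle, 302 in fibroblasts and 24.7 in immune cells. Among endothelial groups with at least 20 cells, Col4a1 was at 2096 CPM in GE-SCJ E19 and 2647 CPM in stomach E19. Col4a1 was seen in 91.7% of endothelial and 18.1% of immune cells, and after thinning in 100% and 12.3%, at median depths of 9365 and 8266.5 UMIs.

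Over 55 groups of class, region and stage with at least 20 cells, the log2 levels of Col4a1 and Col4a2 had a Pearson r of 0.98, and over the 10 fibroblast groups 0.96. Their ratio in UMIs had a median of 2.22 and ranged from 0.80 to 6.5. These groups share 1 library and unequal depth, and other pairs stood near the same r over the 55 groups: 0.98 for Col1a1 with Col1a2, 0.99 for Col6a1 with Col6a2, 0.92 for Col3a1 with Col5a2 and 0.90 for Col4a5 with Col4a6.

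**Figure D3:**
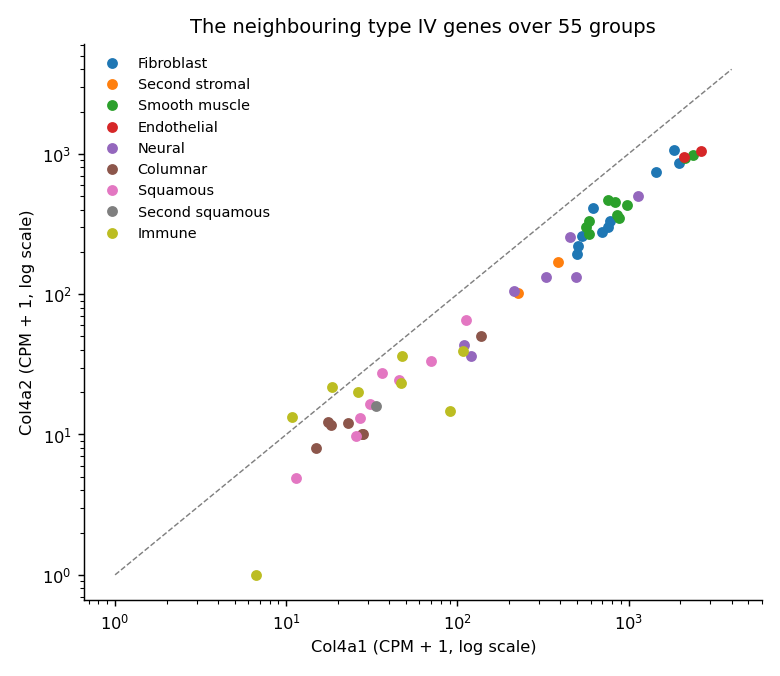
Col4a2 level (vertical axis) against Col4a1 level (horizontal axis), each as CPM plus 1 on log axes, in 55 groups of class, region and stage with at least 20 cells, coloured by class; the dashed line marks equal levels. Most points lay below the dashed line, at a median ratio of Col4a1 over Col4a2 of 2.22, with endothelial groups at the upper end.

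Col4a5 and Col4a6, which enter the basement membranes of muscle and some epithelia, were highest in smooth muscle and fibroblasts. Col4a5 was at 164 CPM in smooth muscle, 148 in fibroblasts, 117 in second stromal, 42.4 in squamous, 20.5 in columnar and 16.3 in endothelial cells, beside 11.2 CPM in immune cells. Col4a6 was at 34.6 CPM in smooth muscle, 33.0 in fibroblasts and 21.6 in second stromal cells. Col4a4, known with Col4a3 from the filter of the kidney, was at 130 CPM in the second stromal label and at no more than 3.47 CPM in any other. Its log2 ratio of second stromal over fibroblast was 7.01 (6.47 to 7.59), with 175 UMIs in the former and 32 in the latter. It was seen in 46.0% of second stromal cells, of a median depth of 8353 UMIs, and in 1.13% of immune cells, after thinning in 37.5% and 0%, and the level stood in both groups of that label with at least 20 cells, at 140 CPM in GE-SCJ E19 and 112 CPM in stomach pup. Mesothelial markers were high in the same label, and their part in the level was not tested.

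Col7a1, the chain of the anchoring fibrils under squamous epithelium, was at 36.4 CPM in squamous cells, 5.33 in fibroblasts and 1.86 in immune cells, a log2 ratio of squamous over fibroblast of 2.77 (2.50 to 3.03). Among groups of the squamous label alone it was at 51.9, 49.5, 105 and 17.1 CPM in esophagus E15, E19, pup and adult, and at 24.3, 57.4, 59.5 and 14.8 CPM in the same stages of GE-SCJ. With the second squamous label added, Col7a1 in the pup esophagus was at 64.8 CPM. The log2 ratio of pup over E15 was then 0.31 (-0.24 to 0.87), not called. Both adult groups thus lay under all 6 younger ones, and no immune group was above 6.32 CPM. It was seen in 33.0% of squamous and 1.98% of immune cells, and after thinning in 17.4% and 0.791%, with a median depth of 12028.5 UMIs in squamous cells.

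Col15a1 and Col18a1, whose proteins carry long sugar chains at the border of basement membrane and stroma, shared a high level in endothelial cells and parted elsewhere. Col15a1 was at 639 CPM in endothelial cells, 94.8 in fibroblasts, 53.4 in neural, 53.0 in smooth muscle, 12.2 in immune and 5.96 in second stromal cells. Col18a1 was at 371 CPM in neural, 303 in endothelial, 270 in second stromal, 63.4 in fibroblast, 30.1 in squamous, 14.7 in smooth muscle, 9.51 in columnar and 7.70 in immune cells. In the second stromal label the same family thus held both a gene with a level under the immune cells and genes far above the fibroblasts.

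Other collagens. The type VI chains followed the fibroblasts. Col6a1 was at 1068 CPM in fibroblasts, 470 in second stromal, 428 in smooth muscle, 67.0 in neural, 52.6 in immune and 37.0 in endothelial cells. Col6a3 was at 595 CPM in fibroblasts, 405 in smooth muscle and 61.8 in second stromal cells. The alternative chains Col6a4, Col6a5 and Col6a6, which can take the place of Col6a3 in the trimer, lie next to each other on chromosome 9 with gaps of 28810 and 27917 bp, and were at 195, 166 and 64.0 CPM in fibroblasts. In smooth muscle Col6a4 was at 33.7 CPM and Col6a5 at 12.1 CPM.

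In neural cells Col9a2, Col9a3, Col20a1 and Col28a1 were called higher than in fibroblasts beside Col11a2 and Col18a1, 6 of 37 collagen genes where 12.1% of all genes were called. Col9a3, a FACIT known from cartilage, was at 43.3 CPM in neural cells and at most 2.23 CPM in any other label. Col20a1, also a FACIT, was at 41.1 CPM in neural cells and 0.770 in fibroblasts. Col28a1, known from the nerve sheath, was at 9.35 and 1.76 CPM.

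Col18a1 in neural cells was at 251 and 1535 CPM in the esophagus at E15 and pup, at 208 and 388 CPM in GE-SCJ at E15 and E19, and at 218, 515 and 1003 CPM in the stomach at E15, E19 and pup. The 2 pup groups, of 24 and 20 cells, thus stood above all 5 prenatal ones. The same pup groups held Col3a1 at 5092 and 2427 CPM, against 92.1 to 1213 CPM in the prenatal groups, and the part of stromal RNA in their levels was not tested.

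Among the rest, Col8a1, a short-chain network collagen, was at 131 CPM in fibroblasts, 43.1 in smooth muscle and 27.2 in squamous cells, and Col8a2 at 25.97, 29.05 and 14.8 CPM in fibroblast, second stromal and smooth muscle cells. The FACIT gene Col14a1 was at 518 CPM in second stromal cells, 448 in fibroblasts and 16.3 in smooth muscle, while Col12a1 was at 197 and Col16a1 at 243 CPM in fibroblasts. Col13a1, a membrane-bound collagen, was at 47.2 CPM in endothelial cells and 13.4 in fibroblasts. Col23a1 and Col25a1, also membrane-bound, were at 47.3 and 30.1 CPM in fibroblasts and 48.5 and 29.3 CPM in smooth muscle. Col26a1 was at 17.3 CPM in fibroblasts and 12.8 in neural cells, and Col22a1, known from junctions of muscle and tendon, at 5.45 CPM in fibroblasts and under 1 CPM in the other labels.

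Col19a1, a FACIT known from mice without it to be needed for the smooth muscle of the lower esophageal sphincter, was at 15.9 CPM in smooth muscle and 1.08 in fibroblasts, a log2 ratio of 3.85 (3.32 to 4.41). Within smooth muscle it was at 30.02, 29.8 and 14.04 CPM in GE-SCJ at E15, E19 and pup, at 6.05, 12.4 and 3.58 CPM in the stomach, and at 2.65, 2.16, 0 and 0 CPM in the esophagus at E15, E19, pup and adult. GE-SCJ was thus above both neighbours at E15 and E19, on 52 and 72 UMIs. At the pup stage it rested on 8 UMIs, against 2 in the stomach and 0 in the esophagus. In that esophageal group 3 counts make 26.2 CPM, above the GE-SCJ level, so GE-SCJ and esophagus could not be ranked there. It was seen in 9.15% of smooth muscle and 0.282% of immune cells, and after thinning in 5.67% and 0%, with a median depth of 9837 UMIs in smooth muscle.

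Against the fibroblasts, collagen genes were called higher at shares near those of all genes or under them, and lower more often than genes in general. In smooth muscle 3 of 38 collagen genes were called higher beside 5.94% of all genes and 21 lower beside 10.5%, in endothelial cells 5 of 34 beside 10.0% and 28 beside 18.4%, and in neural cells 6 of 37 beside 12.1% and 24 beside 12.4%. In the second stromal label 3 of 35 were higher beside 12.1% and 22 lower beside 10.7%. The 22 include Col28a1, with 0 UMIs there and 57 in fibroblasts. Its fibroblast level was under the 2.23 CPM that 3 counts make in the second stromal label. In immune cells 1 of 35, Col11a2, was higher beside 13.7% and 34 lower beside 25.9%. Columnar cells had 0 of 38 higher beside 15.8% and 33 lower beside 27.7%, squamous cells 1 of 36 beside 12.1% and 33 beside 27%, and the second squamous label 0 of 34 beside 9.70% and 32 beside 58.9%. The median log2 ratio over the collagen genes was -1.36 in smooth muscle, -3.76 in endothelial, -1.98 in neural, -1.26 in second stromal, -3.85 in immune, -5.27 in columnar and -4.48 in squamous cells, where the median of all genes was between -0.37 and 0.15.

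The genes that process collagen were counted from lists of 20 for chain modification and folding, 8 for propeptide cleavage, 5 for crosslinking and 8 receptors. All 5 crosslinking enzymes, Lox and Loxl1 to Loxl4, were lower than in fibroblasts in endothelial, immune, columnar and squamous cells. Of the cleavage genes with at least 50 UMIs, 6 of 6 were lower in these 4 labels and in neural cells, and 5 of 6 in smooth muscle. Chain folding genes were lower for 9 of 19 in smooth muscle, 9 of 20 in endothelial, 13 of 19 in neural, 15 of 19 in columnar and 17 of 19 in squamous cells, and among these 5 labels 1 gene was higher, Colgalt2 in endothelial cells. Of the receptors with at least 50 UMIs, 7 of 8 were lower in immune cells, 5 of 7 in columnar and squamous cells, 4 of 7 in endothelial, second stromal and second squamous cells, 3 of 7 in neural cells and 2 of 7 in smooth muscle. The receptors called higher were Ddr1 in neural, squamous and second stromal cells, Itga2 in endothelial and neural cells, Itga10 in second stromal cells, Itga1 in smooth muscle and Lair1 in immune cells. Of all genes, 10.5% were lower in smooth muscle, 18.4% in endothelial, 12.4% in neural, 25.9% in immune and 10.7% in second stromal cells. The share was 27.7% in columnar, 27% in squamous and 58.9% in second squamous cells, where 4 of 7 receptors lay near it. Higher calls came to 5.94 to 15.8% of all genes.

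Stages in fibroblasts. Fibroblast groups held 31 to 739 cells, and GE-SCJ adult, with 15 cells, was left out. Depth differed by stage, with a median of 10573 UMIs per cell in esophagus E15 and 3859 in esophagus pup. The collagen share of fibroblast UMIs was 3.03, 4.79, 3.42 and 3.70% in the esophagus at E15, E19, pup and adult, 1.74, 2.69 and 3.61% in GE-SCJ at E15, E19 and pup, and 1.51, 2.37 and 2.94% in the stomach. Esophagus was highest and stomach lowest at E15 and E19, and at the pup stage GE-SCJ was highest. Basement membrane genes were 2.77, 2.68, 9.12 and 6.14% of collagen UMIs in the esophagus, 5.41, 5.79 and 8.84% in GE-SCJ and 6.35, 6.91 and 8.49% in the stomach. Type I was 49.1, 46.6, 34.4 and 35.4% of collagen UMIs in the esophagus, 41.7, 43.2 and 34.7% in GE-SCJ and 40.5, 40.4 and 34.0% in the stomach.

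**Figure D4:**
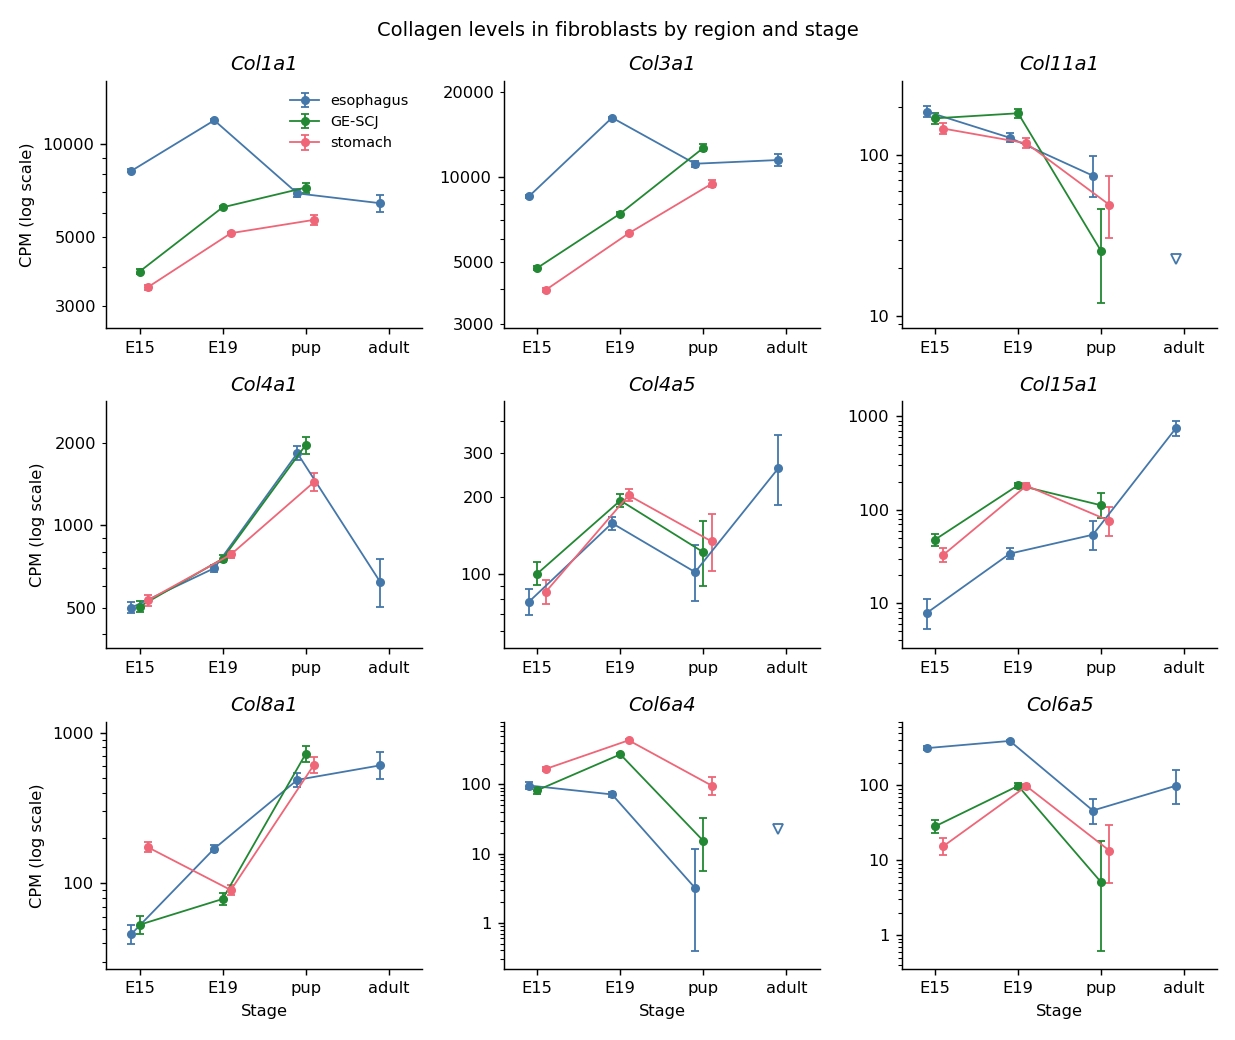
Levels of 9 collagen genes in fibroblasts as CPM on a log axis against stage, coloured by region, with exact 95% Poisson intervals; an open triangle marks the upper bound of a group with 0 UMIs. Col4a1 was higher in the pup groups (1440 to 1969 CPM) than in all E15 groups (499 to 531 CPM), whereas Col11a1 was lower there (25.4 to 74.9 against 147 to 187 CPM).

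Col4a1 was at 499, 697, 1839 and 619 CPM in the esophagus at E15, E19, pup and adult, at 504, 754 and 1969 CPM in GE-SCJ and at 531, 782 and 1440 CPM in the stomach. Col4a2 was at 192, 278, 1058 and 408 CPM, at 220, 299 and 856 CPM and at 258, 328 and 744 CPM. All 3 pup groups stood above all prenatal groups and the adult group for both genes. The log2 ratios of pup over E15 were 1.88 (1.78 to 1.99), 1.97 (1.85 to 2.09) and 1.44 (1.31 to 1.57) for Col4a1 and 2.46, 1.96 and 1.53 for Col4a2. Endothelial markers, whose cells held the highest Col4a1 level, summed to 17.6 CPM at E15 and 31.9 CPM at the pup stage in esophageal fibroblasts, against 3693 CPM in endothelial cells. These sums are given for the esophagus only, and the part of endothelial and smooth muscle cells in the ratios was not tested.

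Col8a1 had the largest ratio of pup over E15 among the genes called higher in each region. It was at 45.9, 170, 486 and 607 CPM in the esophagus, at 53.1, 78.7 and 721 CPM in GE-SCJ and at 174, 90.1 and 611 CPM in the stomach. Pup and adult groups lay above all prenatal ones, and the log2 ratios of pup over E15 were 3.4 (3.13 to 3.67), 3.76 (3.50 to 4.03) and 1.82 (1.61 to 2.02). Col15a1 was at 7.88, 34.0, 54.1 and 749 CPM in the esophagus, at 48.0, 184 and 112 CPM in GE-SCJ and at 33.0, 181 and 76.1 CPM in the stomach. It was lowest at E15 in each region, and E19 stood above pup in GE-SCJ and the stomach but not in the esophagus.

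Lower levels at the pup stage were those of Col11a1, Col23a1 and Col26a1 in all 3 regions. Col11a1 was at 187, 129, 74.9 and 0 CPM in the esophagus, at 170, 183 and 25.4 CPM in GE-SCJ and at 147, 119 and 49.3 CPM in the stomach, with log2 ratios of pup over E15 of -1.30, -2.61 and -1.51. The adult esophagus held 0 UMIs of Col11a1 against 47 in the pup esophagus, at least 4.03-fold lower with a floor of 3 counts for the group, on fewer than the 50 UMIs needed for a call. Col23a1 was at 57.7, 38.3, 7.96 and 12.4 CPM, at 46.2, 33.2 and 12.7 CPM and at 94.8, 45.4 and 15.7 CPM. Col26a1 was at 22.8, 2.58, 4.78 and 0 CPM in the esophagus, at 22.8, 16.4 and 2.54 CPM in GE-SCJ and at 39.0, 18.8 and 0 CPM in the stomach, where 0 against 149 UMIs made it at least 5.81-fold lower. Pup levels rested on 5, 5 and 7 UMIs of Col23a1 and on 3, 1 and 0 of Col26a1. Intervals reached inside 2-fold for Col23a1 in GE-SCJ (-3.07 to -0.46) and Col26a1 in esophagus (-3.77 to -0.45) and GE-SCJ (-5.25 to -0.29). Those of Col11a1 did so in esophagus (-1.75 to -0.87) and stomach (-2.18 to -0.91).

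In all, 7 collagen genes were called higher and 8 lower of 30 in the esophagus for pup over E15 (9.91 and 12.9% of all genes), 10 and 8 of 28 in GE-SCJ (9.43 and 13.7%), and 9 and 4 of 27 in the stomach (8.37 and 11.3%). Col4a1, Col4a2, Col8a1 and Col15a1 were called higher in all 3 regions, 4 of 26 genes beside 3.82% of 8254 genes, and Col11a1, Col23a1 and Col26a1 lower, 3 of 26 beside 4.16%. Other genes were called in some regions. Col3a1 was higher in GE-SCJ (1.42) and stomach (1.26), and Col6a1 in GE-SCJ (1.18) and stomach (1.41). Col6a3 was higher in esophagus (1.38) and stomach (1.51), and Col24a1 in the esophagus (2.31). Col5a3 (2.86) and Col18a1 (1.60) were higher in GE-SCJ. Col5a3 in the stomach (3.17, 2.21 to 4.13) and Col24a1 in GE-SCJ (1.60) and stomach (1.55) held too few UMIs for a call. Col5a3 in the esophagus (-0.18) and Col18a1 in esophagus (0.21) and stomach (0.97) were tested and not called. The pup groups held fewer UMIs than the E15 groups, so a gene low at E15 reached the UMI minimum less readily. Col6a4 (-4.34, on 2 pup UMIs), Col6a5 (-2.72), Col6a6 (-2.33), Col8a2 (-2.98, on 2 pup UMIs) and Col14a1 (-1.08) were lower in the esophagus. Col6a4 (-2.22, on 6 pup UMIs) and Col6a5 (-1.91, on 2 pup UMIs) were also lower in GE-SCJ. Col9a2 was lower in GE-SCJ (-2.01, on 1 pup UMI) and stomach (-1.67, on 3 pup UMIs), and Col4a6 and Col25a1 were lower in GE-SCJ only.

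**Figure D5:**
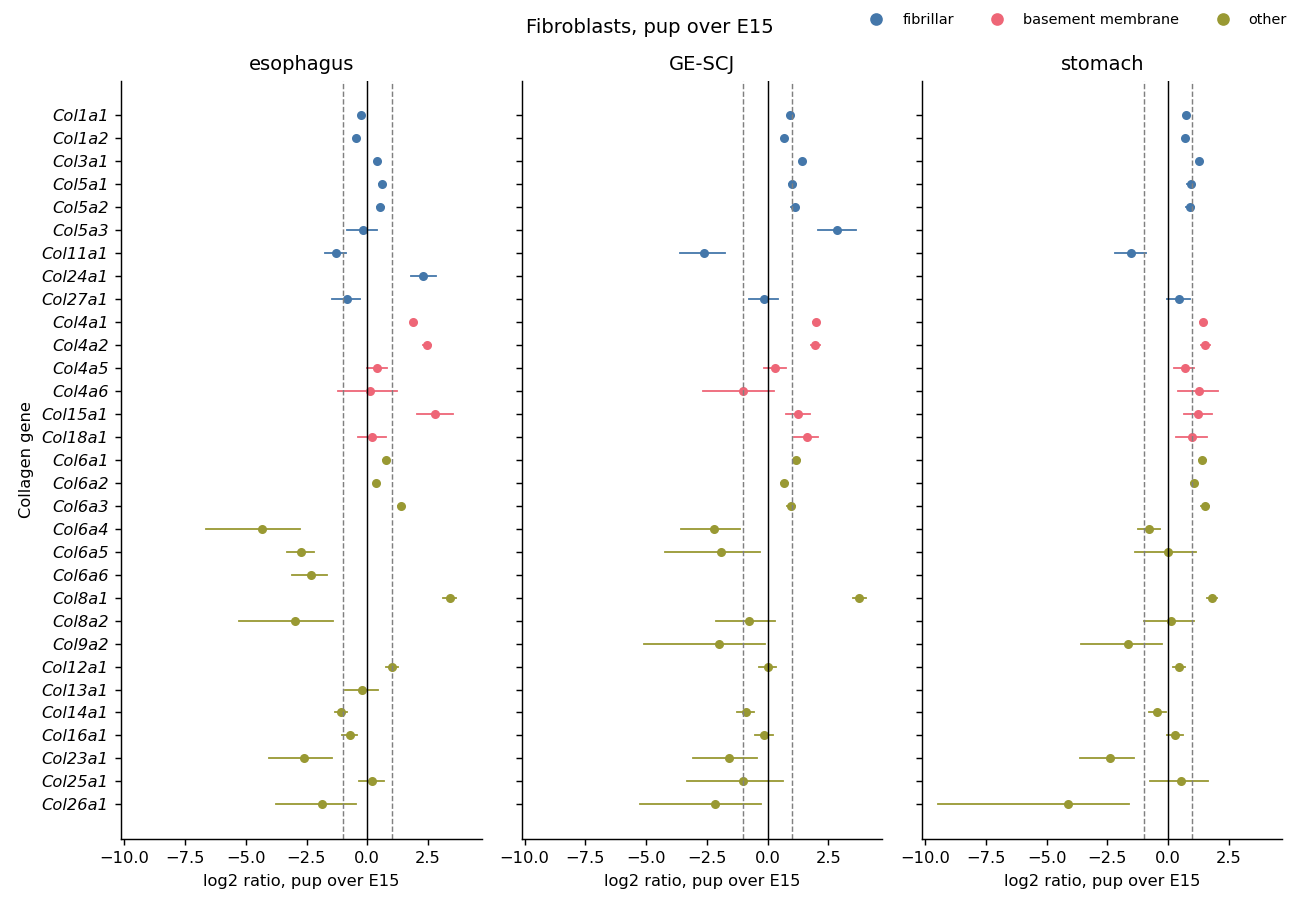
Log2 ratio of pup over E15 in fibroblasts for the collagen genes with at least 50 UMIs over both stages, 1 panel per region and coloured by family, with exact 95% intervals; dashed lines mark 2-fold. Points of Col4a1, Col4a2, Col8a1 and Col15a1 lay past the upper line in all 3 regions, and those of Col11a1, Col23a1 and Col26a1 past the lower line.

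Markers of other cells were read in the same groups. The 5 columnar markers, all above 0 in each, summed to 511 and 1287 CPM at E15 and pup in the esophagus, 607 and 1123 in GE-SCJ and 564 and 1984 in the stomach, against 11260 CPM in columnar cells, and their part in the ratios was not tested. The 5 pericyte markers, all above 0 in each group, summed to 239 and 223 CPM at E15 and pup in the esophagus, 454 and 666 in GE-SCJ and 677 and 681 in the stomach, and Rgs5 alone went from 73.5 to 46.2, from 140 to 356 and from 245 to 352 CPM. Without cells that held at least 2 UMIs of the list (27 of 151, 43 of 82 and 52 of 78 pup cells, and 161 of 347, 230 of 350 and 293 of 360 E15 cells), Col4a1 was at 1701, 1796 and 1351 CPM in pup and 454, 372 and 372 CPM in E15 fibroblasts. Calls then came to 6 and 8, 6 and 4, and 5 and 3, and Col15a1 stood at 1.40, 0.80 and 0.39, with fewer than 50 UMIs in the esophagus and stomach, so that its call was lost in all 3 regions. Col26a1 likewise had fewer than 50 UMIs in each region, Col11a1 in the stomach stood at -0.45 and Col3a1 there at 0.98. Col4a1, Col4a2, Col8a1 and Col23a1 stayed past 2-fold in all 3 regions. Without cells with a UMI of Rgs5 the calls came to 7 and 8, 7 and 4, and 7 and 4, with Col8a1 in the stomach at 0.80 and Col23a1 in GE-SCJ at -0.98. Both filters count raw UMIs per cell and so depend on depth as well as on markers. Median depth was 10573, 9875.5 and 9858 UMIs in E15 and 3859, 4242.5 and 5072.5 UMIs in pup fibroblasts of the 3 regions. The part of depth in the kept and lost calls was not tested.

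From E15 to E19, before birth, most collagen genes were higher by less than 2-fold. The median log2 ratio over 32 genes was 0.38 in the esophagus, 0.49 in GE-SCJ and 0.51 in the stomach, against -0.10, -0.04 and -0.09 over all genes. Ratios above 0 were found for 71.9, 87.5 and 75.0% of collagen genes, against 37.4, 44.5 and 38.8% of genes. Calls came to 5 higher and 2 lower (2.04 and 2.0% of all genes), 4 and 0 (2.2 and 0.565%) and 7 and 2 (2.33 and 1.42%). Col5a3 (1.15, 1.93 and 1.91) and Col15a1 (2.07, 1.93 and 2.45) were higher in all 3 regions, 2 of 31 genes beside 0.491% of 10394 genes. Col1a1 went from 8191 to 11952 CPM in the esophagus, from 3864 to 6242 in GE-SCJ and from 3439 to 5148 in the stomach, under the 2-fold of a call in each. The 5 smooth muscle markers, all above 0 in each group, summed to 449 and 1220 CPM in fibroblasts of the esophagus at E15 and E19, 485 and 1120 in GE-SCJ and 346 and 1105 in the stomach, against 24289 CPM in smooth muscle cells. Col4a5 (1.02 and 1.26) and Col4a6 (1.15 and 1.80) were among the genes called higher in the esophagus and stomach. Over all regions and stages their levels were close in smooth muscle (164 and 34.6 CPM) and fibroblasts (148 and 33.0 CPM). In esophagus and stomach fibroblast markers were also higher at E19 than at E15 and pericyte markers lower, with the sums given under the regions. The part of these smooth muscle, fibroblast and pericyte markers in the ratios was not tested.

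From E19 to the pup stage Col6a4 and Col6a5, alternative chains of type VI, were called lower in all 3 regions. Col6a4 was at 96.6, 71.8, 3.19 and 0 CPM in the esophagus, at 82.5, 272 and 15.2 CPM in GE-SCJ and at 167, 435 and 96.3 CPM in the stomach. Col6a5 was at 315, 393, 46.2 and 99.0 CPM, at 28.4, 98.6 and 5.08 CPM and at 15.5, 97.7 and 13.4 CPM. The log2 ratios of pup over E19 were -3.91, -3.94 and -2.14 for Col6a4 and -3.04, -3.70 and -2.64 for Col6a5, with 2 pup UMIs of Col6a4 in the esophagus and of Col6a5 in GE-SCJ. The third alternative chain, Col6a6, was called lower in the esophagus (-2.72) and in GE-SCJ (-1.16, -4.24 to 0.75, on 1 pup UMI), where it stood at 0.08 without pericyte-marked cells, and was not tested in the stomach, with 1 and 46 UMIs. The partner chains Col6a1 (1402 and 1710, 1094 and 1588, 1071 and 1498 CPM at E19 and pup) and Col6a2 did not share this direction. Calls came to 6 higher and 10 lower of 31 (9.75 and 9.5% of all genes), 4 and 8 of 30 (8.53 and 11.4%), and 4 and 7 of 31 (8.96 and 9.37%). In all 3 regions Col4a2, Col8a1 and Col24a1 were higher, 3 of 28 beside 2.84% of genes, and Col6a4, Col6a5 and Col23a1 lower, 3 of 28 beside 2.67%. Without pericyte-marked cells Col6a4 stood at -3.24, -6.42 and -3.73 and Col6a5 at -2.38, -2.80 and -2.63, while Col23a1 stood at -0.66 in GE-SCJ and -0.97 in the stomach and Col24a1 had fewer than 50 UMIs in both.

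The adult esophagus gave 31 fibroblasts, set against 151 of the pup. Of 18 collagen genes 4 were called higher and 3 lower (7.47 and 10.5% of all genes). Col15a1 was higher at 749 against 54.1 CPM (log2 ratio 3.76, 3.21 to 4.35), as were Col5a3 at 272 against 41.4 CPM, Col4a5 at 260 against 102 CPM and Col14a1 at 520 against 223 CPM. Col4a1 and Col4a2 were lower by -1.56 and -1.35, and Col24a1, at 62 UMIs in the pup, had 0 UMIs in the adult, at least 5.32-fold lower. Fibroblast markers summed to 20381 CPM in this adult group and to 7646 CPM in the pup group, and pericyte markers to 458 and 223 CPM, and their part in the differences was not tested.

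Regions in fibroblasts. At E15 and E19 the stomach held less type I and type III collagen RNA than the esophagus. The fibrillar genes Col5a1, Col5a2, Col11a1 and Col27a1 were called at neither of these stages. Col1a1 was at 3439 against 8191 CPM at E15 and 5148 against 11952 CPM at E19, Col1a2 at 2663 against 6706 and 4410 against 10358 CPM, and Col3a1 at 3957 against 8535 and 6300 against 16265 CPM. The log2 ratios of stomach over esophagus lay between -1.37 and -1.11 for the 3 genes, and GE-SCJ stood between the regions for each. At the pup stage the levels were 5686 against 6930, 4320 against 4862 and 9462 against 11150 CPM, and none of the 3 was called.

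Of the type VI chains, Col6a5 and Col6a6 were called lower in the stomach at both prenatal stages. Col6a5 was at 15.5 CPM in stomach and 315 CPM in esophagus at E15 (log2 ratio -4.33, -4.72 to -3.95) and at 97.7 and 393 CPM at E19 (-2.01). Col6a6 was at 10.5 and 144 CPM (-3.74) and at 6.96 and 188 CPM (-4.73). Col6a4 was at 167 and 96.6 CPM at E15 (0.79, not called) and at 435 and 71.8 CPM at E19 (2.60, 2.46 to 2.74). Col6a1, Col6a2 and Col6a3 were called at neither stage, with log2 ratios of -0.91 to -0.01. Over the 10 fibroblast groups the log2 levels of Col6a5 and Col6a6 had an r of 0.86 and those of Col6a4 and Col6a5 an r of 0.09. Col5a3 (-3.22 and -2.46), Col13a1 (-2.88 and -1.13) and Col25a1 (-2.12 and -2.09) were also lower in the stomach at both stages. Col15a1 (2.03 and 2.41), Col9a2 (1.34 and 1.07) and Col22a1 (1.65 and 3.61) were higher there at both.

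Calls came to 4 higher and 9 lower of 32 at E15 (3.27 and 2.9% of all genes), 6 and 10 of 33 at E19 (5.14 and 3.31%), and 1 and 1 of 20 at the pup stage (2.7 and 3.1%), where Col27a1 (1.01) was higher and Col24a1 (-1.79) lower. The pup groups held fewer UMIs, so that fewer genes reached 50. Fibroblast markers summed to 6568 CPM in the esophagus and 1831 CPM in the stomach at E15, to 11193 and 3813 at E19 and to 7646 and 5662 at the pup stage, and pericyte markers to 239 and 677, 202 and 508, and 223 and 681 CPM. Fibroblast markers, like Col1a1, Col1a2 and Col3a1, lay closest between the regions at the pup stage, while pericyte markers were higher in the stomach at each stage. The part of these markers in the collagen ratios was not tested.

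For E19 over E15 none of the 18 or 19 folding genes was called in any region, where 0.565 to 2.33% of all genes were called in either direction. For pup over E15 the propeptidase Adamts2 and the crosslinking enzyme Loxl1 were called higher in all 3 regions, and Lox in GE-SCJ and the stomach, with Loxl3 lower in GE-SCJ. In the esophagus 5 of 18 folding genes were lower (Serpinh1, the collagen chaperone, with P4ha1, P4ha2, Crtap and Fkbp14) and 1 was higher (Tmem38b). In GE-SCJ 2 were higher and 1 lower of 19, and in the stomach 1 and 1 of 18. In these comparisons 8.37 to 9.91% of all genes were called higher and 11.3 to 13.7% lower.

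Smooth muscle. The collagen share of smooth muscle UMIs was 0.731, 0.788, 0.655 and 0.666% in the esophagus at E15, E19, pup and adult, 0.713, 0.856 and 1.60% in GE-SCJ and 0.627, 0.754 and 1.79% in the stomach. The pup groups of GE-SCJ and stomach, of 119 and 113 cells, stood above all others. For pup over E15 11 collagen genes were called higher and 1 lower of 22 in GE-SCJ (11.4 and 12.4% of all genes), 17 and 2 of 21 in the stomach (10.9 and 13.3%), and 1 and 7 of 17 in the esophagus (9.23 and 12.5%), which had 22 pup cells.

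Col4a1 was at 588, 852 and 2142 CPM in smooth muscle of GE-SCJ at E15, E19 and pup, at 874, 977 and 2381 CPM in the stomach and at 565, 761, 829 and 589 CPM in the esophagus at E15, E19, pup and adult. Col15a1 was at 7.50, 35.2 and 272 CPM, at 19.96, 53.9 and 263 CPM and at 7.94, 12.97, 17.5 and 58.4 CPM. Col6a4 was at 9.81, 9.51 and 160 CPM in GE-SCJ and at 7.86, 34.7 and 245 CPM in the stomach, while no esophageal group was above 17.5 CPM. Col4a5 differed from these in being called higher in all 3 regions, with log2 ratios of 2.02 (1.41 to 2.59) in the esophagus, 2.30 in GE-SCJ and 2.49 in the stomach. Crosslinking genes were also higher in GE-SCJ and the stomach, with Lox, Loxl1 and Loxl2 called for 3 of 3 tested in each, beside 11.4 and 10.9% of all genes. In the esophagus, where more collagen genes were lower than higher, 1 of 2 was higher (Lox) and 0 lower, beside 9.23 and 12.5% of all genes.

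Fibroblast and pericyte markers were higher at the pup stage than at E15 in each region, including the esophagus, where the collagen share was lower. Their part in the collagen levels was not tested. Within the smooth muscle label fibroblast markers summed to 317 CPM (E15) and 1977 CPM (pup) in GE-SCJ, to 224 and 2101 CPM in the stomach and to 240 and 890 CPM in the esophagus, and pericyte markers to 214 and 1018, 232 and 2220, and 283 and 366 CPM, with all 5 pericyte markers above 0 except Notch3 in the GE-SCJ and esophageal pup groups. Rgs5 alone went from 29.0 to 1759 CPM in the stomach. Without cells with a UMI of Pdgfra, a fibroblast gene (41 and 40 pup cells left out), calls came to 9 higher and 1 lower in GE-SCJ and 15 and 2 in the stomach. Without cells with a UMI of Rgs5 (72 of 119 and 88 of 113 pup cells left out) they came to 12 and 1, and 15 and 0, and the lower calls of Col11a1 and Col23a1 in the stomach became 0.54 and 0.28.

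The esophageal smooth muscle label carried Col25a1, a membrane collagen known from muscle that motor axons grow into, at 76.7, 197 and 113 CPM at E15, E19 and pup and at 0 CPM in the adult, against 11.4 to 21.5 CPM in GE-SCJ and stomach groups. Col4a5 was at 76.7, 402, 305 and 204 CPM in the same groups. Tnnt3, from the list of 4 striated muscle markers, was at 8.82, 329, 480 and 0 CPM in these groups. The pup levels rested on 13 UMIs of Col25a1 and 35 of Col4a5, and their differences from E19 were not tested. Of the striated muscle list only Tnnt3 is given by group, and Acta1, Mb and Myog are not. In the adult Tnnt3 and Col25a1 were at 0 CPM and Col4a5 was at 204 CPM. At E19 the 17 cells with a UMI of the 4 striated markers held Col25a1 at 171 (122 to 234) CPM and the 25 without at 222 (166 to 291) CPM, with Col4a5 at 311 and 490 CPM. The intervals of Col25a1 overlapped. A cell without such a UMI can still carry the RNA, and the part of striated muscle cells was not tested.

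Epithelium. Pup over E15 in stomach columnar cells gave 1 collagen gene higher and 2 lower of 17 (9.32 and 20.9% of all genes). Col18a1 was higher at 13.9 against 5.70 CPM (1.23, 0.60 to 1.93), in a range that immune groups (1.95 to 15.3 CPM) also held, and its ratio was 0.35 without the 1% of cells highest in it. Col6a2 and Col12a1 were lower. Esophageal squamous cells of both labels had 2 genes higher and 10 lower of 14 (9.44 and 33.9%). The higher genes were Col8a1, at 114 against 38.7 CPM (1.54, 1.00 to 2.10), and Col12a1, at 66.8 against 10.2 CPM (2.60, 1.67 to 3.67), while esophageal immune cells held 0 UMIs of Col8a1 at both stages and Col12a1 at 3.49 CPM at the pup stage and 37.7 CPM at E15. Among the lower genes, Col1a1 was at 510 and 105 CPM in squamous cells at E15 and pup and at 556 and 69.8 CPM in immune cells of the esophagus, and Col3a1 at 430 and 114 CPM and at 696 and 140 CPM. Col18a1, also lower, was at 88.6 and 26.7 CPM in squamous and at 13.7 and 6.98 CPM in immune cells, so that its squamous level was above the immune level at both stages.

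Within the squamous label alone the pup levels stood out in both regions. Col8a1 was at 38.7, 41.0, 193 and 5.30 CPM in the esophagus at E15, E19, pup and adult and at 4.42, 2.13, 39.7 and 7.75 CPM in GE-SCJ. Col12a1 was at 10.2, 7.24, 112 and 10.6 CPM and at 2.21, 6.38, 65.6 and 7.10 CPM. For both genes the pup group was the highest of the 4 stages in each region.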

How the data were processed

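Cells of pooled mice were captured in 1 gene-expression library with a matching tag library. Per the labels, reads were processed with Cell Ranger 6.1.1 against mm10. The authors deposited whole UMI counts per gene and cell, with no normalization, for cells that had passed their filters, and a table with the tag, the class label, the total and the mitochondrial percent of each cell. No cell was removed here, the highest deposited percent was 19.7, and no doublet caller was run.

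Counts were summed over the cells of each class, region and stage with at least 20 cells and divided by the UMIs of the group. Ratios had 1 UMI added to each sum, and genes with at least 50 UMIs over both groups were compared over the whole table, with 2-fold as the call. Intervals were exact Poisson (levels), exact Clopper-Pearson (shares) and exact conditional (ratios), at 95%. A level of 0 was set at a floor of 3 counts per group for a bound. The regions and stages were single pooled samples, so no p-value was computed. The ratio script was checked on simulated counts.

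Named genes were taken from the 10 collagen genes with the most UMIs in fibroblasts, the highest gene of each other class, every type IV gene and the 5 largest ratios in each direction of each comparison. Other genes were added where a count or family needed them. Not all of the largest ratios were named, so a gene left unnamed need not have had a small one. The collagen genes, families and gene lists were chosen with earlier results of these data known. Alternatives covered the fold, the UMI minimum, the total used, the weighting of cells, cell filters and marker checks. Intervals came from scipy 1.17.1, tables from pandas 2.3.3 on numpy 2.4.6 (Python 3.11.15), the neighbour check from scikit-learn 1.9.0 and the plots from matplotlib 3.10.9. Gene coordinates are from the GENCODE M21 annotation of GRCm38, and promoter sequences from RefSeq on GRCm38.p6.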

Additional observations from a re-analysis of the deposited data

Results flagged for a closer look

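These collagen genes were called in opposite directions in different regions for the same pair of stages. With 1 pooled sample per region and stage the difference between regions was not tested.

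In fibroblasts, the log2 ratio of pup over E15 of Col4a6 was -1.0 in GE-SCJ, on 4 pup UMIs and with an interval of -2.66 to 0.27, and 1.28 (0.41 to 2.07) in the stomach. Without pericyte-marked cells the ratios were -1.69 and -0.94, both on fewer than 50 UMIs, so that the directions were no longer opposite. The log2 ratio of pup over E19 of Col5a3 was -1.33 (-1.95 to -0.78) in the esophagus and 1.26 (0.52 to 1.93) in the stomach.

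In smooth muscle, pup over E15 gave lower calls in the esophagus, with 22 pup cells, and higher calls in other regions for 4 genes. Col1a1 stood at -1.11 in the esophagus and 1.17 in the stomach, Col6a2 at -1.04 and 1.95, and Col12a1 at -1.58, on 2 pup UMIs, and 1.00. Col16a1 stood at -1.20 in the esophagus, on 3 pup UMIs, 1.45 in GE-SCJ and 2.19 in the stomach. Pericyte markers summed to 366 CPM in the esophageal pup group, 1018 in GE-SCJ and 2220 in the stomach, and their part in these differences was not tested.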

How the results depend on the processing

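No paired analysis was possible because the labels carry no replicate numbers and each region and stage is 1 pooled sample. Of 88 alternative values of the counts and of the fibroblast share, 66 kept to within 1.5 times the main count or to within the interval of the share, and 22 moved. With 3-fold in place of 2-fold, calls went from 46 to 26 for pup over E15 in fibroblasts, from 20 to 11 for E19 over E15, from 39 to 19 for pup over E19, from 7 to 3 for adult over pup, from 31 to 18 for stomach over esophagus, from 39 to 20 for smooth muscle and from 15 to 9 for epithelium. With at least 200 UMIs they went to 30 for pup over E15, 3 for adult over pup, 19 for the regions, 22 for smooth muscle and 4 for epithelium. With no UMI minimum they went to 82 for pup over E15, 67 for pup over E19, 24 for adult over pup, 53 for the regions, 91 for smooth muscle and 41 for epithelium, and collagen genes above fibroblasts went from 19 to 46. The fibroblast share of 2.90% became 3.74% without mitochondrial, ribosomal protein and hemoglobin genes in the total, 2.97% as the mean of the cells' own shares and 3.08% over cells whose markers fit their label.

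The 443 calls, each of a gene in a comparison, had 4725 alternative ratios. Of these, 4372 kept their call, 348 lost it (117 with 3-fold in place of 2-fold and 98 with at least 200 UMIs), and 5 changed sign, for which the cause was not tested. The kept calls include 443 with no UMI minimum, a setting that cannot lose a call. Without the 1% of cells highest in the gene, Col28a1 in second stromal over fibroblast cells went from -1.26 to 0.90. That gene had 0 UMIs in the second stromal label and 57 in fibroblasts, so its second stromal side was only the 1 added UMI. Leaving out marked cells was chosen after seeing the data, and it went by raw UMIs per cell, so that it also depends on depth. Without pericyte-marked cells Col4a6 in stomach fibroblasts (pup over E15) went from 1.28 to -0.94 and Col6a6 in GE-SCJ fibroblasts (pup over E19) from -1.16 to 0.08. Without Rgs5-positive cells Col11a1 and Col23a1 in stomach smooth muscle (pup over E15) went from -1.19 to 0.54 and from -1.23 to 0.28. Esophageal smooth muscle could not be refitted without Pdgfra-positive, Rgs5-positive or striated-marked cells, since fewer than 20 cells were left.

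Intervals cover counting error only and not the spread between mice. The depth limits the pup and adult groups most, with 161569 UMIs in adult esophageal fibroblasts, where 1 UMI is a large step for rare collagens. Levels are RNA of dissociated cells, and matrix protein was not measured.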
